A study of Mus musculus with 4 samples.

Results

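Mybpc3, Smpx, Ankrd1, Actc1, Tnnt2, Csrp3, Des and Myl4 are 8 genes best known from striated muscle, and here they were followed in cultured mouse spermatogonial stem cells, germ cells of the testis that renew themselves. They were taken by symbol from the gene names of the arrays, as 8 of 27730 names carried by 41174 probes, and they had 10 probes in all. The set had been put together as muscle genes that rise when FGF2 signalling is cut, with Mybpc3 and Smpx among the largest rises. The members were thus chosen by the treated over control log2 ratios of these same arrays, so those values are given as a description, with no test. The data do not bear the label out for all 8: of the 7 that could be measured, 6 were higher in the treated cells on all 4 arrays, as were 39.1% of all genes tested, and Tnnt2 was lower on all 4. Csrp3 was not well above background in either condition.

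The stem cells derived from day 5 animals of the C57/BL6 x DBA/2 F1 cross. Their medium held no serum, and 40 ng/ml GDNF was present throughout, with 5 ng/ml FGF2 in normal culture. The sources used here do not say whether a feeder layer was used. Control cells stayed in that medium. Treated cells, labelled -F+S, were kept without FGF2 and with SU5402, an inhibitor of FGF receptor kinases, for 12 h. Removal of FGF2 and the inhibitor always came together, so their effects, on FGF receptors or elsewhere, cannot be told apart. There were 4 control and 4 treated biological replicates, and each of 4 arrays carried 1 of each, with the treated RNA in Cy3 (green) and the control RNA in Cy5 (red). The dyes were never swapped, so a dye effect of a probe and the treatment cannot be told apart.

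Striated muscle contracts through the sarcomere, in which thick filaments of myosin pull on thin filaments of actin that are anchored at the Z-disc. Mybpc3 and Myl4 belong to the thick filament side, Actc1 and Tnnt2 to the thin filament, and Csrp3, Smpx and Des to the Z-disc, the costamere and the filaments that tie them together. Ankrd1 binds titin in the sarcomere, also acts in the nucleus, and is a known target of the coactivator YAP with TEAD factors. Several of these genes are not restricted to striated muscle: desmin is made in smooth muscle and pericytes, and the actin and tropomyosin families are used by many contractile cells. In the testis the contractile cells are the peritubular myoid cells and the vessel walls.

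Treated RNA gave 26613 to 28496 of 41174 probes well above background, and control RNA 25533 to 27891, over the 4 arrays. The fit covered 18455 genes, and at an adjusted p below 0.05 limma called 68.4% of them, 37.5% higher and 30.9% lower. Higher genes were 54.8% of those called, against 41.7% with the scanner software's own ratio, which moved the median of all genes by -0.17 on the log2 scale, 47.2% with processed signals centred on the median (-0.13) and 60.6% where arrays were centred on their median without loess. Markers of the labelled germ cells were measurable: the 9 tested of 10 spermatogonial markers, among them Ddx4 and Dazl, were well above background in both channels on all 4 arrays. The same held for all tested markers of smooth muscle, fibroblasts, macrophages and heart muscle, so it does not set the germ cells apart. Of the 9 spermatogonial markers, 5 were called lower and 0 higher, the median log2 ratio being -0.24. In bulk RNA, fewer cells of a type and less RNA per cell cannot be told apart.

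The probes of the 8 genes are 60 bases long, and the files place them on mm9. Those of Mybpc3 (chr2:90976577-90976636), Smpx (chrX:154190370-154190429) and Ankrd1 (chr19:36186809-36186868) each cover 60 unbroken bases of the genome. For the others the file's coordinates span far more than the probe, so these probes cross at least 1 splice junction: Actc1 924 bases (chr2:113874011-113874934), the brighter Tnnt2 probe 313 (chr1:137747976-137748288), Csrp3 1915 (chr7:56086063-56087977), Des 226 (chr1:75363404-75363629) and both Myl4 probes 371 (chr11:104445422-104445805 together). The probe that read Actc1, the probe that read the fall of Tnnt2 and the Myl4 pair are printed here because the results turn on what they bind. Capitals mark the 47 bases that the Myl4 probes share.
Actc1 probe: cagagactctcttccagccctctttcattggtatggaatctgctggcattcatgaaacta
Tnnt2 probe: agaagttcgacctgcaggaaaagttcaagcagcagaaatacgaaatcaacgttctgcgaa
Myl4 brighter probe: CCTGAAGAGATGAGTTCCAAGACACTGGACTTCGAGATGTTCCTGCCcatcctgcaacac
Myl4 dimmer probe: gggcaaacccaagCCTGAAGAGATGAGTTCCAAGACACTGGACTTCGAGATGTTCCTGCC

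Mybpc3, cardiac myosin-binding protein C of the thick filament, stood highest of the 8 by ratio. Its log2 normalised intensity in the control cells was 8.24, 7.92, 8.41 and 8.56 on replicates 1 to 4, and in the treated cells it was 11.97, 11.90, 11.92 and 11.98. The treated samples lay close together in the plot of levels while the control samples were spread more widely, and the lowest treated sample stood 3.34 above the highest control. The mean log2 ratio was 3.66 ± 0.25 (SD, n = 4; SE of the moderated fit 0.097), or 12.7-fold, and only 6 of 18455 genes had a larger one. Its signal was well above background in both channels on all 4 arrays, so the ratio is not a bound.

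Myl4, the essential myosin light chain of the embryo and the atrium, rose little. The brighter of its probes read 9.62, 9.77, 9.68 and 9.72 in the treated cells and 9.18, 9.32, 9.35 and 9.45 in the controls, a mean log2 ratio of 0.37 ± 0.086 (SD, n = 4). Treated and control values did not overlap, with a gap of 0.17 between them. The dimmer probe, shifted by 13 bases along the same message, gave 0.64 ± 0.046 (SD, n = 4) and was higher than the brighter probe on each array. Both probes put every treated sample above every control. The 1.29-fold and 1.56-fold rises differ by more than the spread between arrays, though the probes share most of their sequence.

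Actc1, the alpha actin of heart muscle, was the thin filament gene of the set with the large rise. Its control values were 11.79, 11.98, 12.12 and 12.03, and its treated values were 13.61, 14.15, 14.06 and 14.06. All 4 treated samples were above all controls, with replicate 1 the lowest in both conditions. The log2 ratio was 1.99 ± 0.15 (SD, n = 4), 3.97-fold. Actin genes are closely alike in sequence, and how far the Actc1 probe also binds other actin messages was not tested.

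Tnnt2, cardiac troponin T, which ties the troponin complex to tropomyosin, went the other way. Control cells had 9.59, 9.68, 9.30 and 9.60 and treated cells 9.26, 9.19, 9.05 and 9.34. The level fell within every array, but the groups overlapped, because the control of replicate 3 was below the treated sample of replicate 4. Its mean log2 ratio was -0.33 ± 0.11 (SD, n = 4), 1.26-fold lower, and it stayed below 0 under each of the other ways of processing, between -0.59 and -0.26. A further Tnnt2 probe, placed at chr1:137735641-137735700 and named after a cDNA clone, was not well above background in either channel on any array.

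Smpx, a small X-linked protein of the costamere, had the other very large ratio. In the control cells it read 9.36, 9.43, 9.45 and 9.60, and in the treated cells 12.85, 12.82, 12.99 and 12.91. These 4 pairs gave log2 ratios of 3.49, 3.39, 3.55 and 3.32, a mean of 3.44 ± 0.10 (SD, n = 4) and 10.8-fold. The spread was less than that of Mybpc3, and every treated sample was more than 3 log2 units above every control.

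Ankrd1, the stress-induced ankyrin repeat protein, was already bright in normal culture. Control values of 11.92, 12.00, 12.16 and 12.06 rose to 13.79, 13.95, 13.89 and 13.85, which is a log2 ratio of 1.84 ± 0.096 (SD, n = 4), or 3.58-fold. The groups were 1.64 apart at their nearest points. Ankrd1 and Actc1 thus had log2 ratios close to each other, and neither was near those of Mybpc3 and Smpx.

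Des encodes desmin, the intermediate filament that links Z-discs to each other and to the membrane. Its probe is printed 10 times on each array, and the mean of these spots was 7.80, 7.64, 8.10 and 7.96 in control cells and 8.77, 8.66, 8.89 and 8.62 in treated cells. The treated samples were all above the controls, by 0.52 at the nearest. The log2 ratio was 0.86 ± 0.17 (SD, n = 4), 1.81-fold. Csrp3, the muscle LIM protein that anchors at the Z-disc, read between 6.50 and 6.72 in the treated cells and between 6.57 and 6.73 in the controls. None of these 8 readings was well above background, so its change, if any, was not detectable.

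**Figure D1:**
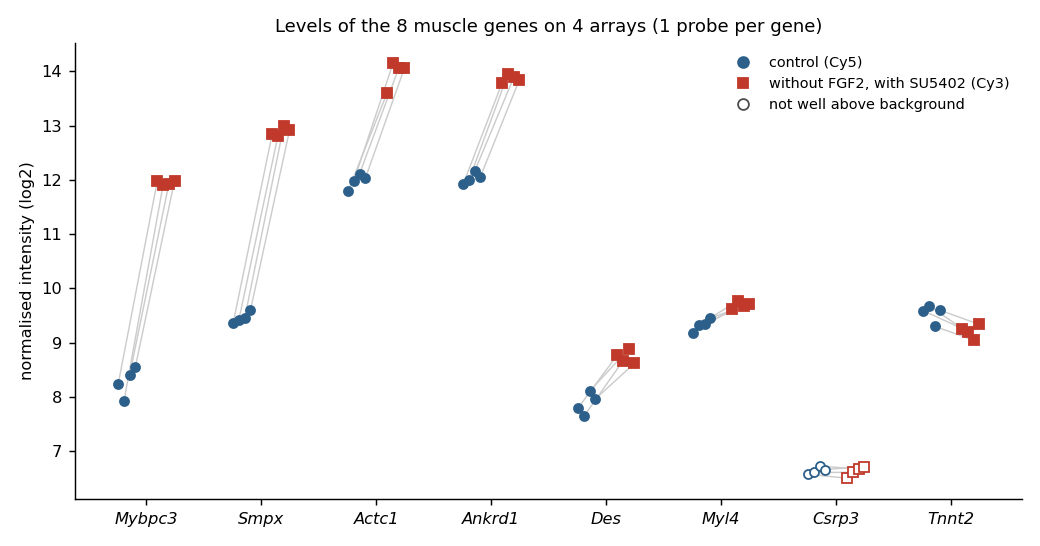
Log2 normalised intensity of the 8 genes on 4 arrays, with controls as blue circles, treated samples as red squares and a grey line joining the samples of an array; 1 probe is shown per gene. Mybpc3 and Smpx climb by more than 3 units, Tnnt2 falls on each array and the open symbols of Csrp3 are not well above background. Levels of different genes come from different probes and are not comparable.

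Among the 7 measured genes the ratios ran from -0.33 to 3.66 with a median of 1.84, against a median of 0.023 over all genes tested. They split into a very high pair, Mybpc3 and Smpx, a middle pair, Actc1 and Ankrd1, and Des, Myl4 and Tnnt2 below 1. Within each of the pairs, the intervals of 1 SD around the means overlapped. A ratio above 1 on all 4 arrays was seen for 4 of the 7, the members of both pairs, and for 9.14% of all genes tested. Every treated value lay above every control for 6 of the 7, which had been chosen for rising. The share of all genes with such a separation was not counted, so it sets none of the 6 apart. Replicate 2 gave the highest ratio for 5 of the 7 genes and replicate 4 the lowest for 4. The differences between arrays were small beside those between genes: the SD of a gene over arrays was between 0.086 and 0.25.

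**Figure D2:**
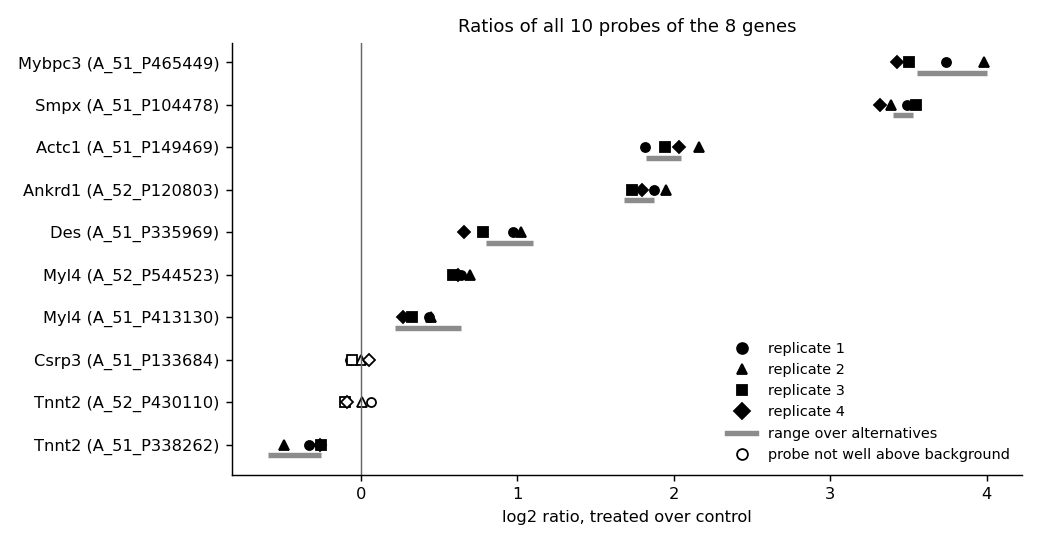
Log2 ratio of treated over control for all 10 probes, 1 symbol per array, with open symbols for probes not well above background and grey bars for the range of the gene over the other ways of processing. The 6 rising genes stay right of 0 on every array and under every alternative, and the brighter Tnnt2 probe stays left of it.

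The genes with ratios nearest to those of the leading pair were not muscle genes. By root mean square difference over the 4 arrays, Chl1 (0.15), Mro (0.19) and Itgbl1 (0.23) were nearest to Mybpc3. Chl1 encodes a cell adhesion molecule, Mro is a gene of the developing gonad, and Itgbl1 is related to integrins. Nearest to Smpx were Cldn11 (0.087), the tight junction protein of Sertoli cells, Adamts1 (0.15), a secreted protease, and Jam2 (0.15), a junctional adhesion molecule. With 4 arrays and 1 contrast this measure mostly ranks genes by the size of their rise.

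The promoters of the 8 genes were read for motifs of muscle and contractile regulators, since 6 of them rose together. RefSeq (GRCm38.p6) holds 10 promoters for the 8 genes, each searched on both strands over 250 bases before and 50 after the annotated start. A MEF2 site lies at -90 to -81 from the start of Mybpc3, and is present in 0.557% of all 32851 promoters. A CArG box, the element bound by SRF, lies at -47 to -38 from the start of Actc1, and 1.63% of all promoters hold one. CATTCC, the core of TEAD sites, occurs in 14.7% of all promoters. Ankrd1 has 2 copies, both as GGAATG on the strand read here, at -210 to -205 and -123 to -118, and Tnnt2, which fell, has 1 at -27 to -22. The 250 bases before the start are printed for these 4 genes, on the gene's strand, with the MEF2, CArG and CATTCC matches in capitals.
Mybpc3 chr2:91117894-91118143 plus strand: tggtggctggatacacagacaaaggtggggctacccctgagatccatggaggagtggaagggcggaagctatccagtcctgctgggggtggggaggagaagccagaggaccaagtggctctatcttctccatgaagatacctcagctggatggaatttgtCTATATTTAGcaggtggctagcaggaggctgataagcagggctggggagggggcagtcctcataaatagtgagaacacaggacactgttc
Actc1 chr2:114052876-114053125 minus strand: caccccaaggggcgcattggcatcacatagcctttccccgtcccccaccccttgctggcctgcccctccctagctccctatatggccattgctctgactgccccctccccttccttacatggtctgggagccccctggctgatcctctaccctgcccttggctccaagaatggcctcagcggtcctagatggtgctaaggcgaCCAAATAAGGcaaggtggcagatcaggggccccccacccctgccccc
Ankrd1 chr19:36119845-36120094 minus strand: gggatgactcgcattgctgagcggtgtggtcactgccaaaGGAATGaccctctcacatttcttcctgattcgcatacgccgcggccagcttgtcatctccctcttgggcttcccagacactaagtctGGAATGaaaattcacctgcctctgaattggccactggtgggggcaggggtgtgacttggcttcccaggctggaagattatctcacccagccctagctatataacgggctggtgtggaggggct
Tnnt2 chr1:135836084-135836333 plus strand: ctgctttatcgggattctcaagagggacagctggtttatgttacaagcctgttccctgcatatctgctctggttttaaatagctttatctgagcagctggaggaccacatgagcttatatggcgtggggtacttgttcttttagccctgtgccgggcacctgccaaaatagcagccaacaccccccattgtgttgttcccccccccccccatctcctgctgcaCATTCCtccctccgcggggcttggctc

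The other motifs were common. The letters GATAA, bound by zinc finger factors such as Gata4, were in 5 of the 10 promoters and in 25.4% of all. CANNTG, the E-box of myogenic factors, was in 8 of 10 and in 72.3% of all, and in the Mybpc3 promoter the nearest copy (CAGGTG) overlaps no other motif and begins at -80, the base after the MEF2 match. Of the 8 genes only Actc1 had TATAAA, at positions 34 to 39 after its annotated start, a motif in 13.6% of all promoters. None of the 6 motifs was found in the Myl4 promoter, and Smpx had GATAA only. A match is a string of letters in these windows and was not tested as a binding site.

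**Figure D3:**
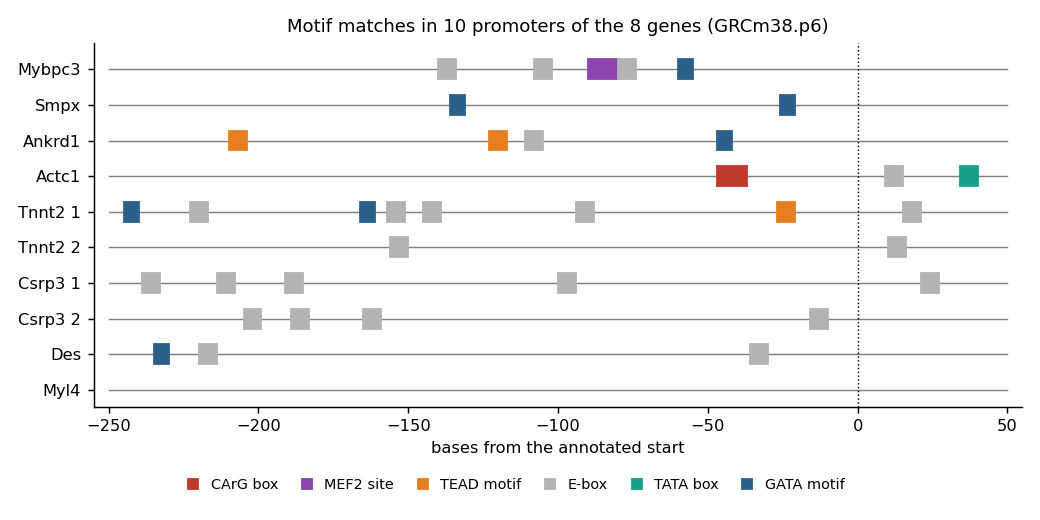
Motif matches in the 10 promoters of the 8 genes by distance in bases from the annotated start; each block is 1 match on either strand. The MEF2 block of Mybpc3, the CArG block of Actc1 and the pair of TEAD blocks of Ankrd1 each lie within 250 bases before the start, and the Myl4 line is empty.

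Factors that act on such motifs moved in both directions. Of 20 transcription factor genes of skeletal and heart muscle, 16 could be tested, and limma called 10 higher and 4 lower (median log2 ratio 0.77). These were 62.5% and 25%, beside 37.5% and 30.9% of all genes. Mef2c, a MEF2 factor, had a log2 ratio of 2.78 (SE 0.078, limma adjusted p = 9.91e-09) and was higher on all 4 arrays. Myocd, the coactivator of SRF in heart and smooth muscle, was not well above background in any control sample. Its log2 ratio was 2.42 (limma adjusted p = 1.50e-07). With each control value raised at least to the dimmest probe well above background on its array, the rise was 4.64-fold. Probes brighter than that floor can also fail the background mark, so this fold is not a strict minimum. The second Myocd probe, also not well above background in any control sample, gave a log2 ratio of 0.42. Gata6 (1.83), Tbx5 (1.37) and Gata4 (0.96) were called higher as well, and Gata4 and Gata6 are also factors of the gonad. Mef2a was at 1.19 on its brightest probe but at 0.26 and 0.017 on its other probes, and Mef2b and Mef2d had probes of opposite sign.

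The master regulators of skeletal muscle were not higher. Myog, which drives muscle differentiation, had a log2 ratio of -0.59 (SE 0.071, limma adjusted p = 6.37e-05). Myod1 was called lower at -0.23, with 2 treated and 3 control samples well above background, a call that ended without replicate 3 (limma adjusted p = 0.052) and with median centring for loess (0.186), and Myf5 was not well above background on any array. Nkx2-5, an early heart factor, had a ratio of -0.16 (limma adjusted p = 0.0642, not called; called lower at -0.40 with the scanner's ratio and at -0.36 with processed signals), and Hand1 was not well above background. Of these 16 factor genes, the 4 called lower became 2 without replicate 2, 1 without replicate 3 and 1 with median centring for loess. With the mean of all kept probes 8 were called higher and 7 lower.

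Among SRF, TEAD factors and their partners, limma called 7 of 11 tested genes higher (63.6%) and 2 lower (18.2%), beside 37.5% and 30.9% of all genes. With median centring for loess, 5 were called higher and 1 lower. With the scanner's ratio, and with processed signals centred on the median, 5 were called higher and 2 lower. Vgll3, a partner of TEAD factors, led with a log2 ratio of 2.84 (SE 0.068, limma adjusted p = 6.75e-09), and its further probe gave 2.86. Vgll4 was at 1.22, Tead1 at 0.87 and Yap1 at 0.86, each called higher. Srf itself was at 0.34, a call that ended with the scanner's ratio (0.16, limma adjusted p = 0.0918). Wwtr1, which encodes TAZ, was at 0.28 on its brightest probe and at 2.07 on the other. The call on the brightest Wwtr1 probe ended under each of these scalings. That of Tead3 (0.23) ended with median centring and without replicate 1, 2 or 4. Tead2 and Tead4 were the genes called lower, and the call of Tead4 ended without replicate 2 or 3 (limma adjusted p = 0.0801 and 0.0726). All 18 tested SRF and YAP-TEAD target genes outside muscle were called higher, beside 37.5% of all genes, with a median of 1.19 and a range of 0.24 to 1.94. The largest ratios of this list, those of the matrix and junction genes Ccn2 (1.94), Amotl2 (1.92) and Ccn1 (1.90), lay close to Ankrd1. With median centring for loess 14 of the 18 were called higher, and 17 without replicate 2, without replicate 4, or with either scaling of the processed signals.

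The closest relatives of the 8 genes, which are not members, were tested in the fit over all genes. Of 20, 16 could be tested, and limma called 11 higher (68.8%) and 2 lower (12.5%), or 1 lower without replicate 2, 3 or 4. Over all genes the shares were 37.5% and 30.9%. The median log2 ratio of the relatives was 0.60. The actins rose with Actc1: Acta1, the skeletal alpha actin, had a log2 ratio of 2.55 (SE 0.089, limma adjusted p = 2.61e-08), Acta2, that of smooth muscle, 1.99 on its brightest probe, and Actg2, the enteric actin, 1.16. Acta2 had 4 kept probes that ranged from 0.95 to 3.31. The intermediate filament genes rose with Des, with Synm (synemin) at 1.53, Vim (vimentin) at 1.30 and Nes (nestin) at 0.85, each called by limma.

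Other families were split. Ankrd2, the skeletal muscle relative of Ankrd1, had a log2 ratio of -0.77 (SE 0.065, limma adjusted p = 6.29e-06), and Ankrd23 was at -0.090 and not called on its brightest probe. Its second probe was called lower at -0.43 (limma adjusted p = 0.00116), as was the mean of its probes, and the brightest probe with the scanner's ratio (-0.32). Both genes were well above background in both channels on all 4 arrays. The LIM proteins Csrp1 and Csrp2, made more widely than Csrp3, were higher by 1.44 and 0.49. Csrp1 was also counted among the SRF and YAP-TEAD target genes above. Troponin T of slow and of fast skeletal muscle, Tnnt1 and Tnnt3, had small ratios of 0.21 and 0.20, opposite in sign to Tnnt2. Their calls (limma adjusted p = 0.045 and 0.0312) ended without replicate 1 (0.149 and 0.0543), replicate 2 (0.176 and 0.156) or replicate 3 (0.109 and 0.0722), and with the scanner's ratio Tnnt1 was at -6e-04.

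The relatives of Myl4 and Mybpc3 gave no shared direction. Myl6, the light chain of smooth muscle and other cells, was called higher at 0.71, a call that ended where loess was replaced by median centring (0.17, limma adjusted p = 0.395). The other kept probe of Myl6 gave 1.22. Myl1 and Myl3, of fast and slow muscle, were at 0.12 and 0.071 and were not called, though Myl1 was called higher with the scanner's ratio (0.24) and Myl3 without replicate 4 (0.25). Myl6b was at -0.29, a call that ended without replicate 2, 3 or 4 (limma adjusted p = 0.0527, 0.0528 and 0.0888). Mybpc1 and Mybpc2, the skeletal forms of Mybpc3, were not well above background on any array.

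**Figure D4:**
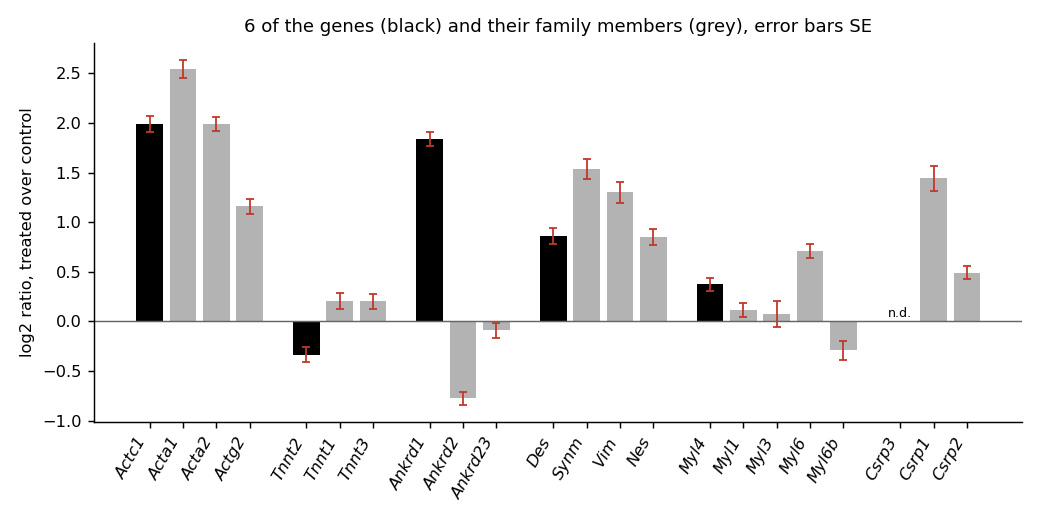
Log2 ratio of treated over control for 6 of the 8 genes (black) and their family members (grey), with SE bars from the fit over 4 arrays; n.d. marks Csrp3, not well above background. Actins and intermediate filaments rise together, while Ankrd2 lies below 0 beside Ankrd1 and Tnnt1 and Tnnt3 lie above 0 beside Tnnt2.

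Across the wider machinery of striated muscle there was no common rise. Of 100 further genes in the lists for thick filaments, thin filaments, the Z-disc and excitation with energy supply, 98 had a probe and 79 could be tested, while 17 were not well above background on any array. Limma called 35 of the 79 higher (44.3%) and 21 lower (26.6%), beside 37.5% and 30.9% of all genes, and their median log2 ratio was 0.12. Where loess was replaced by median centring, 12 were called lower, and over all genes 3578 in place of 5706.

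On the thick filament side 5 of 18 tested genes were called higher (27.8%), 4 lower (22.2%) and 9 neither, with a median of 0.093. Mybphl, a relative of myosin-binding protein C known from the atrium, had a log2 ratio of 2.52 (SE 0.079, limma adjusted p = 1.54e-08), and the M-line gene Myom2 one of 1.85. The heavy chains of heart muscle fell, with Myh7 at -0.66 (limma adjusted p = 0.000141) and Myh6 at -0.35, the latter a call that ended without replicate 3 or 4 (limma adjusted p = 0.0809 and 0.076) and with no replicate block (0.066). Myl2, the ventricular light chain, was at -0.46 and called lower, and Myl7, the atrial one, at 0.46 and called higher.

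In the thin filament 8 of 17 tested genes were called higher (47.1%) and 3 lower (17.6%). Beside Acta1, these were led by the tropomyosins Tpm1 (2.05) and Tpm2 (1.75), which many cells use, and by Tnnc1 (1.85), troponin C of heart and slow muscle. Without replicate 1, and likewise without replicate 3, 5 were called higher. The split depended on the scaling, with 6 higher and 6 lower by the scanner's ratio and 6 higher and 0 lower by median centring for loess. The troponin I genes of slow muscle and heart, Tnni1 and Tnni3, were at 0.62 (called higher) and -0.0081 (not called; called lower at -0.24 with the scanner's ratio, and higher at 0.22 on its second probe).

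At the Z-disc 13 of 26 tested genes were called higher (50%) and 8 lower (30.8%), and 6 with a probe could not be tested. Myoz2, calsarcin of heart and slow muscle, had a log2 ratio of 3.22 (SE 0.084, limma adjusted p = 8.09e-09), near those of Mybpc3 and Smpx. Fhl2, a LIM protein of many cells, was at 2.83, Pdlim3, an actinin-binding protein, at 2.68, and Synm followed at 1.53. The sarcomeric alpha actinin Actn2, the core of the Z-disc, was lower with a ratio of -0.85 (SE 0.067, limma adjusted p = 4.21e-06), on all 4 arrays. Median centring in place of loess left 3 genes of this list called lower, and it also cut such calls over all genes.

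Calcium handling, membrane and energy genes were split as well, with 9 of 18 tested called higher (50%) and 6 lower (33.3%). Cav3, the caveolin of muscle, and Casq2, the calcium store protein of heart muscle, had log2 ratios of 2.59 and 2.52, and the membrane-stabilizing Dmd (dystrophin) and Dysf (dysferlin) of 1.65 and 1.62. Ryr1, the calcium release channel of skeletal muscle, was lower with -0.89 (SE 0.070, limma adjusted p = 3.79e-06), and Chrna1, an acetylcholine receptor subunit of muscle, with -0.72. Of the hormones that stressed heart muscle makes, Nppb was higher at 1.37 and Nppa lower at -0.27, the latter a call that ended with median centring for loess (limma adjusted p = 0.209).

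Markers of whole cell types moved alongside these genes. For comparison, 37.5% of all genes were called higher and 30.9% lower. All 8 smooth muscle and peritubular markers were called higher, with a median log2 ratio of 2.04, and their summed normalised intensity was 132504 to 143707 in control samples and 536108 to 577963 in treated samples. Sertoli markers had a median of 2.26, with 9 of 10 called higher, and sums of 27774 to 31751 against 195999 to 209083. Of 10 fibroblast markers 9 were called higher, with a median of 1.40, and of 7 pericyte markers 6, with a median of 1.78. Leydig markers had 4 of 5 called higher, with a median of 1.08 and sums of 7090 to 8684 against 26217 to 29785, led by the steroid enzyme Hsd3b1 (3.16), and Cyp17a1 was called lower. All 8 macrophage markers were called lower, with a median of -1.01 and sums of 117341 to 139706 in control and 48861 to 61558 in treated samples. Most of these sums came from Lyz2, whose log2 level in controls was 16.64 to 16.93. Heart muscle markers did not rise: of 8 tested, 1 was called higher and 5 lower, with sums of 11007 to 13205 in controls and 10346 to 10873 in treated samples, and the calcium genes Ryr2 and Pln were not well above background on any array. Of 8 tested skeletal muscle markers 3 were called higher and 5 lower, with sums of 8301 to 9027 in controls and 11520 to 13171 in treated samples. The higher sum rests on Acta1: without it, a sum added after seeing the data, it was 7053 to 7997 in controls and 5590 to 5954 in treated samples. Myf5 and Ckm were not well above background. All 10 heart markers and every skeletal marker but Pax7 also stand in the muscle, factor or heart stress lists, and the smooth muscle markers Acta2 and Actg2 among the relatives. Each sum weighs its brightest probes most, such as Myl7, called higher, in the treated heart sum, although levels of different probes are not comparable. The part of these cell types in the rises of the 8 genes was not tested.

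**Figure D5:**
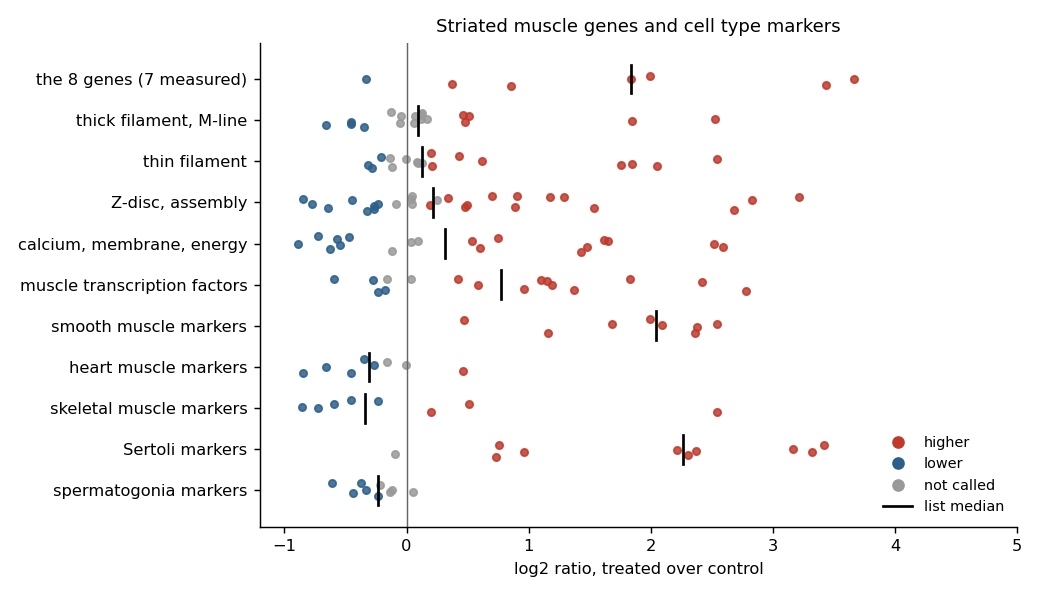
Log2 ratio of treated over control for each tested gene of the muscle lists and cell type markers, red where limma called it higher, blue lower and grey neither, with a black line at each list's median. Smooth muscle and Sertoli markers lie right of 0 with medians of 2.04 and 2.26, while heart and skeletal markers have medians of -0.31 and -0.34.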

How the data were processed

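RNA of 4 control and 4 treated cultures was measured on 4 two-colour Agilent mouse arrays, all on 1 slide. Spot intensity values were read with Agilent Feature Extraction 10.5.1.1, per the submitters' processing notes, and are as deposited by the authors; the processed intensity values and the log10 LogRatio (red over green) are that software's too, per the file headers. The deposited series matrix holds log2 values, which equalled green over red processed signal for 100% of probes within 0.001 on all 4 arrays.

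Mean signals were corrected by normexp (offset 50) against the median local background and normalized by loess within arrays, with control spots at weight 0. Spots marked as outliers (141 to 171 per array) were left out and spots of a probe averaged; 27730 probes with a signal well above background in 1 channel on 3 arrays or more were kept, and the brightest stood for a gene. Levels are log2 values after loess and Aquantile scaling. Names were updated by RefSeq accession (25173 probes) or symbol (7913), and 8088 kept the file's name; Csl, an alias of Smpx, belongs to another accession on these arrays and was not used. Ratios were tested against 0 with limma 3.58.1 (R 4.3.3), two-sided, with Benjamini-Hochberg adjustment over 18455 genes; SE is that of this fit. The procedure was tested on simulated data. The number of arrays limits the precision. Whether the cultures were fully separate is known only from the labels, so p-values measure the spread between these samples.

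The members and lists were chosen with earlier results of these data known. Named were the 8 genes, their relatives, muscle and SRF or TEAD factors, heart stress genes, up to 4 and 2 called genes of each further list by direction, and 3 nearest genes each for Mybpc3 and Smpx. Other genes named (Ddx4, Dazl, Ryr2, Pln, Ckm, Pax7, Hsd3b1, Cyp17a1, Lyz2) are markers named after their values were seen. Alternatives covered background, normalization, spot signal, filter, probe choice, each array and the pairing.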

Additional observations from a re-analysis of the deposited data

Results flagged for a closer look

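With 4 arrays, 101 sets of values were examined for a sample far from the others, which chance alone marks in about 1 of 20 sets, and 8 were marked. Of the 8 muscle genes this was so for Actc1, whose treated level on replicate 1 was 13.61 while the others lay between 14.06 and 14.15. Among other genes the log2 ratio of a single array stood apart for Tbx5 (1.56 on replicate 3, others 1.31 to 1.32), Nppb (1.62 on replicate 2, others 1.28 to 1.31), Actg2 (0.98 on replicate 1, others 1.19 to 1.24) and Hand2 (0.73 on replicate 4, others 0.53 to 0.56). Replicate 4 also stood apart for Cldn11 (3.20, others 3.47 to 3.51), Nrap (-0.47, others -0.28 to -0.24) and Nkx2-5 (-0.29, others -0.13 to -0.11). None of these values changed the sign of its gene's mean.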

How the results depend on the processing

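Under every alternative that gives a value, the 6 rising genes of the set kept their sign and Tnnt2 stayed negative. Mybpc3 ranged from 3.56 to 4.00, Smpx from 3.40 to 3.53, Actc1 from 1.82 to 2.05, Ankrd1 from 1.68 to 1.87, Myl4 from 0.22 (scanner LogRatio) to 0.64 (its second probe) and Tnnt2 from -0.59 to -0.26; Des was at 0.80 or above. Of the 8 genes only Myl4 had a second kept probe, so on second brightest probes 1 of 1 was higher on every array. Those probes exist for 6609 genes, of which 2481 were called higher and 1780 lower; of 33 other striated muscle genes 12 and 10, and of 4 relatives 3 and 1. Median centring in place of loess called 3578 genes lower in all, with 12 striated muscle genes and 1 relative. Leaving out an array gave 6449 to 6748 higher and 4999 to 5389 lower genes, 31 to 37 and 17 to 20 striated muscle genes, and 9 to 12 and 1 to 2 relatives, with 6 of the 7 measured genes higher each time. The ratio pairs the samples of an array; with no replicate block (channels fitted as separate groups) 6685 genes were higher and 5467 lower, and 35 and 19 striated muscle genes. Signs turned for Mef2b (-0.23 with the mean of probes, -1.02 with the second probe), Mef2d (-0.23 and -0.37), Tnnt1 (-6e-04, scanner LogRatio) and Tnni3 (0.22, second probe); the cause was not tested. Replacing loess by median centring also ended the calls of Tnnt1, Tnnt3, Myh6, Myl6, Myl6b, Nppa, Wwtr1, Tead3, Tead4, Myod1, Myf6, Isl1, Nrap and Lmod3. Csrp3, near background, had no measurable ratio.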
